A study of Saccharomyces cerevisiae with 6 samples.

Results

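The genes described are 10 enzymes and carriers of the glyoxylate cycle and gluconeogenesis in the yeast *Saccharomyces cerevisiae*, chosen by name from the 6400 genes of a deposited RNA-seq count table: ICL1, ICL2, MLS1, DAL7, CIT2, MDH2, PCK1, FBP1, SFC1 and IDP2. All 10 had a row in the table, and all 10 passed the filter on low counts, which left 6129 genes to be tested. The study compared CX01F, an evolved strain, with its parent CX01, to ask how metabolism was rearranged for growth on methanol, with 3 biological replicates of each strain. Cells of both strains went from overnight culture in YPD to Delft medium for 16 h, and then to Delft medium in which 1% methanol took the place of glucose. They were grown at 30 °C and 200 rpm and collected near an OD600 of 1.0.

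Both strains carry the same genotype label, so nothing in it separates them. It marks ∆PEX32 and ∆PEX31 as deletions. Without a deletion mark it lists PEX5, S. Cnde1, S. cMDH3 and S.c MDH2, the xylose genes P. sXK, P. sXDH and P. sXR, and P. pPYC, B. mACT1-skl, B. mMDH3-skl, P. pDAK, P. Pdas1-skl and P. Paox1-SKL. MDH2, 1 of the 10 genes, is therefore also named in the genotype, and the table has a single MDH2 row that does not separate a native copy from an added one. The labels call CX01F evolved and do not say whether it is 1 clone.

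The library totals were 51537969 to 63183824 counts, and every one of the 10 genes had at least 1063 counts in each library, so counting error is small for all of them. Levels are given in CPM, counts scaled to the library size. Of the deleted genes, PEX31 had at most 1 count in any library (a library with 0 counts allows up to 3, or 0.061 CPM at most on the TMM-scaled library size, for counting error only), whereas PEX32 had from 167 to 279. The tested genes of chromosomes XI and XV lay lower in CX01F as a whole, with median log2 changes of -0.82 and -0.87, and PCK1 is on XI and MDH2 on XV. No batch or date is given in the labels, so that strain and handling cannot be told apart.

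The glyoxylate cycle lets yeast build sugars from acetyl-CoA. It bypasses the steps of the tricarboxylic acid cycle that release carbon dioxide, so that acetyl units become a net gain of malate and oxaloacetate, and gluconeogenesis then takes oxaloacetate through phosphoenolpyruvate to hexose phosphates. In *S. cerevisiae* these genes are held low on glucose and are switched on when it runs out, by the activators Cat8 and Sip4, which bind a carbon source-responsive element (CSRE) upstream of them. CIT2 has its own control by the retrograde factors Rtg1 and Rtg3 through the R box, and DAL7 by GATA-type factors of nitrogen catabolite repression.

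The stretches shown next carry letters that match these elements, in full or in part, in front of the 10 genes other than ICL2. The 600 bases before each start codon were read from the RefSeq R64 genome of the laboratory strain S288C, whose sequence may differ from that of the strains studied. The build behind the counts is not given in the sources used here, and the positions are those of R64 alone. Each line runs 5′ to 3′ along the strand of its gene, with the bases of the match in capitals, and a match on the opposite strand appears as its reverse complement. The first 7 are the matches to the full CSRE consensus, searched on both strands, in the order of the genes' log2 change.
ICL1, minus strand, chrV:287288-287327: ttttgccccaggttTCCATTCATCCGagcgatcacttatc
MLS1, plus strand, distal match, chrXIV:405813-405852: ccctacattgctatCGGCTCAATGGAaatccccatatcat
MLS1, plus strand, proximal match, chrXIV:405843-405882: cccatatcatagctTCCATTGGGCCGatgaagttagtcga
PCK1, plus strand, chrXI:630576-630615: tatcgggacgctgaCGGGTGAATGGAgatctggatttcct
MDH2, minus strand, distal match, chrXV:83328-83367: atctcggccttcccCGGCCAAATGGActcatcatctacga
MDH2, minus strand, proximal match, chrXV:83273-83312: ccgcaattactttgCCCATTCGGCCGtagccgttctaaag
FBP1, minus strand, chrXII:875271-875310: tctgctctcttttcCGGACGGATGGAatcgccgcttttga
SFC1 and IDP2 had no match to the full consensus but had matches to its fixed letters, CC and CCG with 6 free bases between them, of which the distal match of SFC1 and the single match of IDP2 are shown.
SFC1, plus strand, chrX:609179-609217: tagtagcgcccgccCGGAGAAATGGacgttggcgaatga
IDP2, plus strand, chrXII:504274-504312: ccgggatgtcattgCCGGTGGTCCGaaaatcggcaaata
For CIT2 the distal match to GTCAC, the letters of the R box, is shown, and for DAL7 the distal match to GATAAG, the element bound by GATA-type factors.
CIT2, minus strand, chrIII:122655-122687: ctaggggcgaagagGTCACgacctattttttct
DAL7, minus strand, chrIX:414869-414902: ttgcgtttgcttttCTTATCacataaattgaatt

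A match to the full CSRE consensus was found before 5 of the 10 genes (ICL1, MLS1, PCK1, MDH2 and FBP1), against 0.68% of the 5999 promoters of the same length, or 41 in all. The fixed letters alone, which every full match also contains, were found before 7 of the 10 genes and before 24.7% of all promoters. In MLS1, 4 of the 6 looser matches overlap each other, and in FBP1 2 of the 3 do. CIT2 had 3 matches to GTCAC, a short run of letters that 49.2% of promoters hold at least once and 14.7% at least 2 times. DAL7 had 3 matches to GATAAG, which 26.8% of promoters hold at least once and 4.92% at least 2 times. Before ICL2 the only match was to CCCCNC, letters of the Mig1 repressor site that 27.3% of promoters hold and that were also found before FBP1 and IDP2. The searched bases reach another R64 gene in 5 of the 10 cases. A match is a run of letters and not a measured binding site, and the full consensus was added after the looser matches had been seen. Whether the consensus was itself drawn from promoters of these genes was not checked. The shares are therefore a description and not a test of enrichment.

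**Figure D1:**
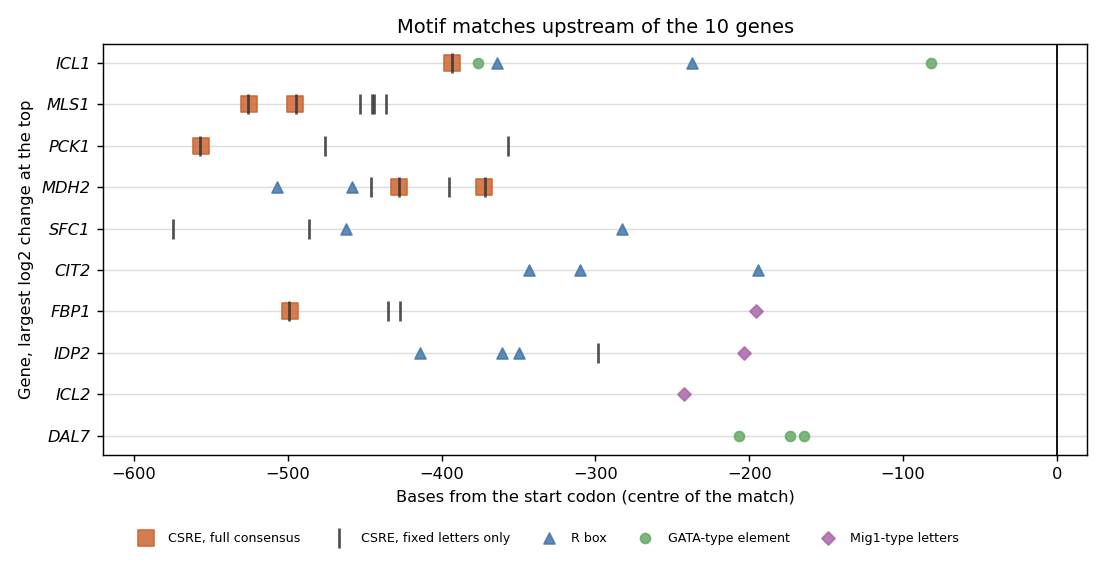
Positions of the motif matches in the 600 bases before the start codon of each of the 10 genes in R64, with the x axis in bases from the start codon and the genes ordered from the largest log2 change at the top to the smallest at the bottom. Squares mark the full CSRE consensus, present before 5 of the genes; bars mark its fixed letters, triangles the R box, circles GATA-type elements and diamonds Mig1-type letters.

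All 10 genes were higher in CX01F, with a median log2 change (CX01F minus CX01) of 4.03 and a range of 0.96 to 6.63, where the median over all tested genes was 0.00. ICL1, MLS1 and PCK1, which hold the entry to the glyoxylate cycle and to gluconeogenesis, rose most, and DAL7 and ICL2, which serve other pathways, rose least. The edgeR quasi-likelihood test, with Benjamini-Hochberg adjustment over all 6129 tested genes and a call at an adjusted p under 0.05, called 10 of 10 as higher. It called 91.4% of all tested genes, 45.5% as higher and 45.9% as lower, so a call alone sets few genes apart. Against a null of a 2-fold change (edgeR's glmTreat), 9 of the 10 passed as higher and DAL7 did not, where 14.8% of the tested genes passed as higher. A called rise of at least 8-fold was seen in 7 of the 10, and in 1.09% of the tested genes. For each of the 10 genes all 3 CX01F libraries lay above all 3 CX01 libraries, which was so for 45.8% of the tested genes. With 3 libraries a strain, 0.1 is the smallest p that an exact permutation test can reach.

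**Figure D2:**
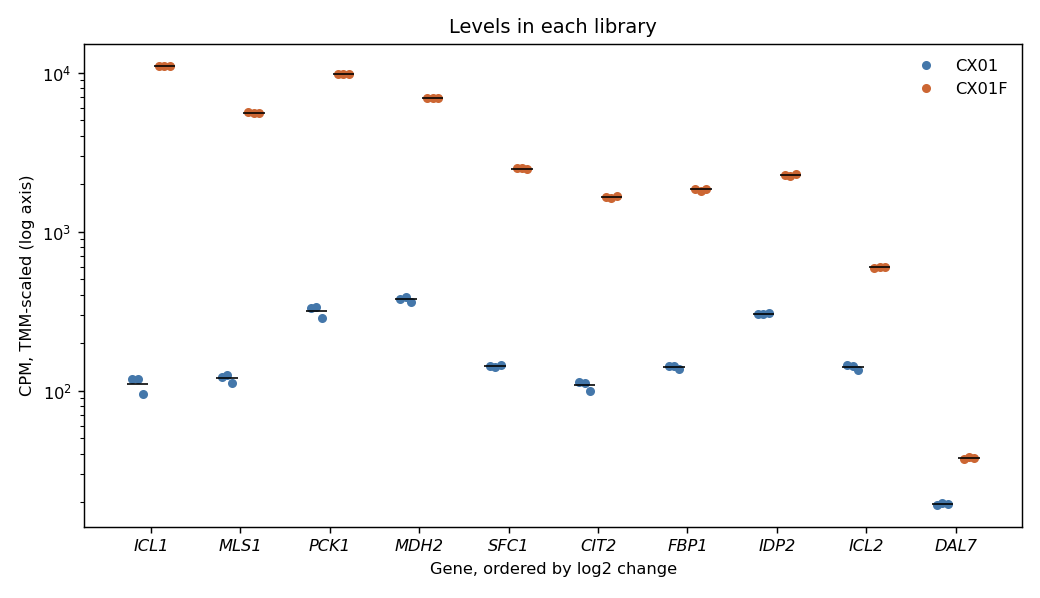
Levels of the 10 genes in each library, in CPM on the TMM-scaled library size on a log axis, where each point is 1 library and each short line the mean of 3. In every gene the CX01F points (orange) lie above the CX01 points (blue), with the widest gap in ICL1 and the narrowest in DAL7.

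The first step that sets the glyoxylate cycle apart is isocitrate lyase, which splits isocitrate into succinate and glyoxylate and is encoded by ICL1. ICL1 was at 118, 118 and 94.6 CPM in CX01 replicates 1, 2 and 3, and at 11014, 10942 and 10936 CPM in the CX01F replicates. The CX01F libraries were close together (10964 ± 43.5 CPM, SD, n = 3), while CX01 replicate 3 lay below the other 2 CX01 libraries (110 ± 13.6 CPM). The rise was 99.4-fold (log2 6.63, SE 0.0798, edgeR adjusted p = 1.16e-17), the third largest of the 6129 tested genes. Per kilobase of coding sequence, ICL1 went from place 2767 to place 9 among the 5856 tested genes with an R64 coding length. Over the 6 libraries, the genes whose mean-centred log2 CPM lay nearest to that of ICL1 were ADH6, an NADPH-dependent alcohol dehydrogenase, at a distance of 0.0943 (log2 6.67), YDR010C at 0.236 (log2 6.51) and YLR307C-A at 0.297 (log2 6.42).

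Malate synthase, encoded by MLS1, joins that glyoxylate to acetyl-CoA to give malate. MLS1 stood at 122, 125 and 112 CPM in the CX01 libraries and at 5644, 5574 and 5598 CPM in the CX01F libraries. The strains did not overlap, and the rise was 46.9-fold (log2 5.55, SE 0.0441, edgeR adjusted p = 3.71e-19). ICL1 and MLS1 act in sequence, and their levels per kilobase were close in CX01, at 65.9 ± 8.12 and 71.8 ± 3.84 CPM per kb, with overlapping libraries. In CX01F they had come apart, at 6550 ± 25.98 CPM per kb for ICL1 and 3366 ± 21.4 CPM per kb for MLS1. ICL1 thus made up 47.7% ± 1.88 of the summed CPM per kb of the pair in CX01 and 66.05% ± 0.0709 in CX01F (n = 3 each), a share whose groups did not overlap (exact permutation test, two-sided, p = 0.1, the smallest that 3 against 3 can give).

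The cycle is fed by citrate synthase and closed by malate dehydrogenase. CIT2, the peroxisomal citrate synthase, was at 113, 111 and 99.2 CPM in CX01 and at 1644, 1617 and 1664 CPM in CX01F. It rose 15.2-fold (log2 3.93, SE 0.0443, edgeR adjusted p = 6.75e-18), and again CX01 replicate 3 was the lowest library. MDH2, the cytosolic malate dehydrogenase that returns malate to oxaloacetate, already had the highest level per kilobase of the 10 genes in CX01, at 332 ± 12.6 CPM per kb. Its values were 377, 390 and 362 CPM in CX01 and 6961, 6938 and 6954 CPM in CX01F, so that the CX01F libraries differed among themselves far less than from the parent. The rise was 18.5-fold (log2 4.21, SE 0.0374), and it was larger, at a log2 of 5.08, once the median of the tested genes of chromosome XV was taken away. A part of an added MDH2 copy in these counts was not tested, and both strains carry the same label.

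SFC1 and IDP2 link the cycle to the rest of metabolism. SFC1, the carrier that exchanges the succinate made by isocitrate lyase for mitochondrial fumarate, was at 143, 140 and 145 CPM in CX01 and at 2498, 2499 and 2481 CPM in CX01F. Its libraries agreed within a few percent in both strains, and it rose 17.5-fold (log2 4.13, SE 0.0297, edgeR adjusted p = 2.29e-19). IDP2, the cytosolic NADP-dependent isocitrate dehydrogenase, uses the same substrate as Icl1 and yields NADPH. It stood at 301, 302 and 308 CPM in CX01 and at 2275, 2232 and 2286 CPM in CX01F, a 7.45-fold rise (log2 2.90, SE 0.0281, edgeR adjusted p = 2.06e-18). IDP2 was thus 3.72 times as high as ICL1 per kilobase in CX01 and 0.279 times as high in CX01F, a reversal of their order.

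Gluconeogenesis proper has a pair of enzymes that glycolysis cannot replace. PCK1, the phosphoenolpyruvate carboxykinase that turns oxaloacetate into phosphoenolpyruvate, was at 331, 337 and 287 CPM in CX01 and at 9793, 9853 and 9807 CPM in CX01F. As with ICL1, CX01 replicate 3 was the low library and the CX01F libraries were close together. PCK1 rose 30.8-fold (log2 4.95, SE 0.0573, edgeR adjusted p = 8.59e-18), or by a log2 of 5.76 relative to the median of chromosome XI. FBP1, the fructose bisphosphatase that makes the last committed step towards hexose phosphate, was at 144, 142 and 137 CPM in CX01 and at 1862, 1805 and 1861 CPM in CX01F. Its rise was 13.1-fold (log2 3.71, SE 0.0310, edgeR adjusted p = 5.52e-19), with no overlap between the strains. Per kilobase PCK1 was at 193 ± 16.4 and FBP1 at 135 ± 3.05 CPM per kb in CX01, and at 5950 ± 19.2 and 1760 ± 31.2 CPM per kb in CX01F.

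ICL2 and DAL7 are relatives of ICL1 and MLS1 that work elsewhere. ICL2 encodes the mitochondrial methylisocitrate lyase of the methylcitrate cycle, which handles propionyl-CoA. It was at 144, 143 and 135 CPM in CX01 and at 592, 598 and 599 CPM in CX01F, a 4.24-fold rise (log2 2.08, SE 0.0302, edgeR adjusted p = 6.40e-17). DAL7 encodes the malate synthase of allantoin breakdown, a nitrogen pathway. It was at 19.1, 19.7 and 19.4 CPM in CX01 and at 37.1, 38.1 and 37.8 CPM in CX01F. DAL7 was the lowest of the 10 genes per kilobase in both strains, and its 1.94-fold rise (log2 0.96, SE 0.0388) was called by edgeR (adjusted p = 6.31e-12) but not past a 2-fold change (glmTreat adjusted p = 1).

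**Figure D3:**
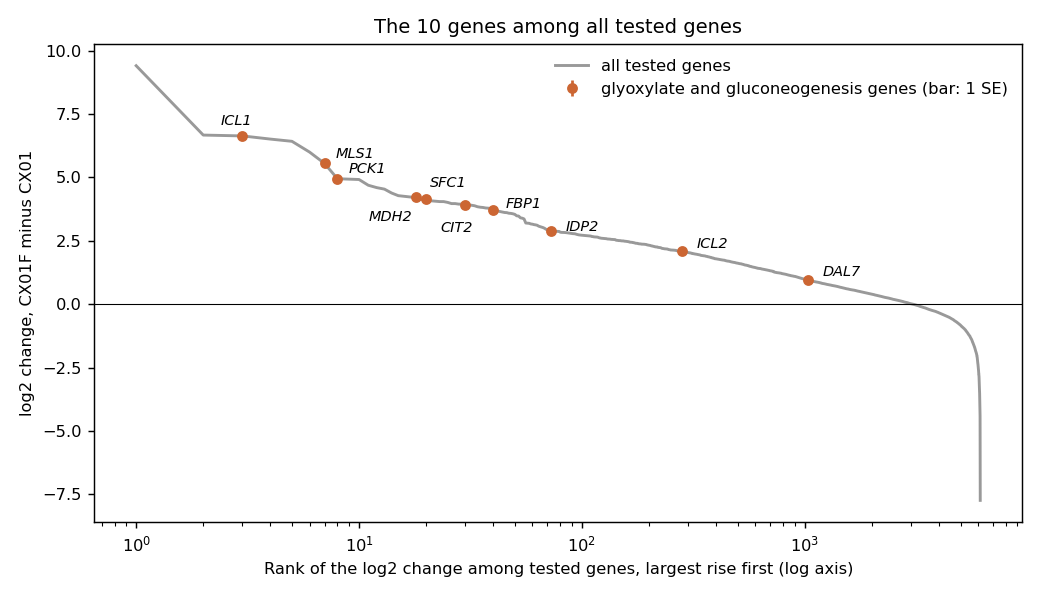
The log2 change of the 10 genes (orange, with 1 SE) on the curve of all 6129 tested genes (grey), against rank from the largest rise, on a log axis. ICL1, MLS1 and PCK1 lay at ranks 3, 7 and 8, IDP2 at rank 73, and ICL2 and DAL7 lay at ranks 282 and 1033.

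The order of levels among the 10 genes changed between the strains. In CX01 the order per kilobase ran MDH2, IDP2, PCK1, SFC1, FBP1, ICL2, CIT2, MLS1, ICL1 and DAL7, where neighbouring genes from ICL2 down to ICL1 overlapped in their libraries and the others did not. In CX01F it ran ICL1, MDH2, PCK1, MLS1, SFC1, IDP2, FBP1, CIT2, ICL2 and DAL7, with no overlap between neighbours. ICL1 moved from the ninth place to the first and MLS1 from the eighth to the fourth, while MDH2, PCK1, SFC1, CIT2 and DAL7 moved by at most 1 place. The 10 genes together took 0.196%, 0.196% and 0.182% of all counts in the CX01 libraries and 3.94%, 3.91% and 3.93% in the CX01F libraries.

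Within the enzyme families the share moved towards ICL1, MLS1, MDH2, IDP2 and CIT2. Of these, IDP2 yields NADPH and is not a step of the glyoxylate cycle, and the peroxisomal MDH3 and IDP3 lost share. Shares are given as percent of the family's summed CPM per kb, with SD over 3 libraries, and each share named here separated the strains without overlap (exact permutation test, two-sided, p = 0.1, the smallest possible). ICL1 held 44.6% ± 2.27 of the isocitrate lyase family in CX01 and 95.0% ± 0.0497 in CX01F. MLS1 held 86.02% ± 0.647 of the malate synthase family in CX01 and 99.3% ± 0.0130 in CX01F, and the summed level of both families rose 46.8-fold and 40.6-fold. MDH2 went from 21.9% ± 0.910 to 78.4% ± 0.0530 of malate dehydrogenase, passing MDH1, the mitochondrial form, which fell from 56.6% ± 0.885 to 16.3% ± 0.115 in share although its own level rose (log2 0.57, or 1.39 relative to the median of its chromosome, XI). MDH3, the peroxisomal form, which the genotype label also names, rose by a log2 of 0.35 but fell in share from 21.4% ± 0.121 to 5.31% ± 0.0916. IDP2 went from 55.3% ± 0.366 to 80.8% ± 0.323 of NADP-dependent isocitrate dehydrogenase. There the mitochondrial IDP1 rose (log2 1.98). The peroxisomal IDP3 fell by 0.75 on the log2 scale, the only relative in these families that was lower in CX01F. Its share went from 23.6% ± 0.140 to 2.74% ± 0.0329.

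Citrate synthase was the family in which the mitochondrial form stayed ahead. CIT1, the tricarboxylic acid cycle enzyme, was at 334, 341 and 340 CPM in CX01 and at 2174, 2170 and 2166 CPM in CX01F (log2 2.68), and CIT3, a minor mitochondrial form that also takes propionyl-CoA, rose by a log2 of 1.41. CIT2 grew from 21.5% ± 1.18 to 42.0% ± 0.359 of the family, and CIT1 went from 64.9% ± 1.31 to 53.4% ± 0.343. These families are not near-identical copies: in R64 the coding sequences of MLS1 and DAL7 share 74.1% of aligned bases with no identical run longer than 19 bases, and the longest identical run in any of these families was 23 bases, between IDP2 and IDP1. No R64 gene overlaps any of the 10.

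**Figure D4:**
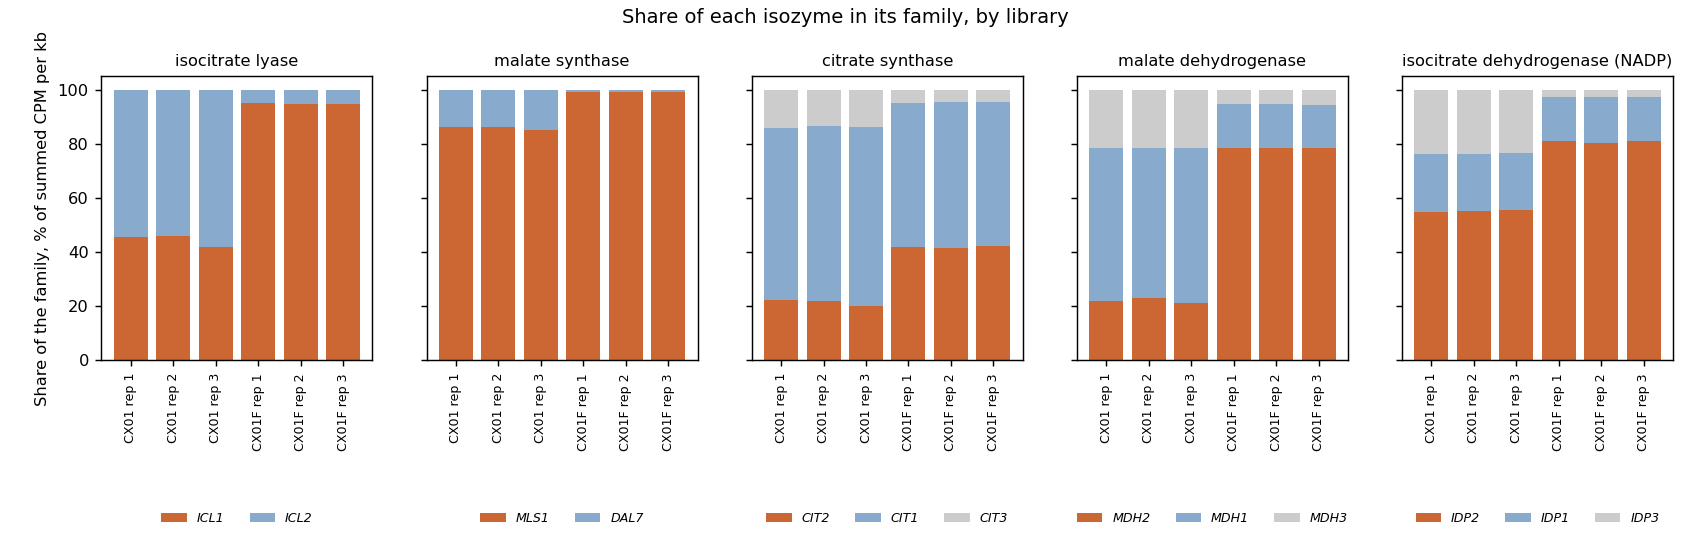
Share of each isozyme in 5 enzyme families, as percent of the family's summed CPM per kb, with 1 bar for each library. The glyoxylate cycle or cytosolic member (orange) takes a larger part of the bar in each CX01F library than in any CX01 library, from 44.6% to 95.0% for ICL1 and from 21.9% to 78.4% for MDH2.

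Most steps next to the 10 genes also rose, while most of the genes shared with glycolysis fell. Of 11 genes of anaplerosis and of carriers for dicarboxylic and tricarboxylic acids, 10 were higher and 1 lower (median log2 1.49). The counts of this and the following lists stand beside 45.5% called higher and 45.9% called lower over all tested genes. AGX1, which converts glyoxylate to glycine, was at 133 ± 2.77 CPM in CX01 and 1215 ± 12.1 CPM in CX01F (log2 3.19), and YHM2, a mitochondrial carrier of citrate and oxoglutarate, rose by a log2 of 3.14. The gene that fell was PYC1 (log2 -1.13), while PYC2 rose (log2 2.26). Both encode pyruvate carboxylase, which supplies oxaloacetate, and both are named here after their values were seen. PYC1 went from 1113 ± 50.7 to 509 ± 15.6 CPM and PYC2 from 125 ± 4.21 to 597 ± 14.2 CPM.

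Of 12 genes for the reversible steps that gluconeogenesis shares with glycolysis, 9 fell, 2 rose and 1 did not pass, with a median of -1.15. Of the 9 that fell, GPM1 (log2 -1.51) and FBA1 (log2 -1.51) lie on chromosome XI and GPM3 (log2 -0.99) on XV, and they are named for their position. Relative to the median of its own chromosome the log2 change was -0.69 for GPM1, -0.70 for FBA1 and -0.12 for GPM3. TDH1, a glyceraldehyde-3-phosphate dehydrogenase, fell by 3.83 on the log2 scale, and ENO1, an enolase, fell by 2.06. The 2 that rose were PGI1 and TPI1 (log2 0.08), named after their values were seen. TPI1 lost its call when CX01 replicate 1 or 2 or CX01F replicate 1 or 3 was left out. It was called lower with scaling by library size only (log2 -0.12, edgeR adjusted p = 0.00364), and turned to -0.03, not called, without chromosomes XI and XV. TDH1 and ENO1 have close copies, among which reads may have been split. The 7 genes for enzymes that oppose Pck1 and Fbp1, or set the level of the sugar bisphosphate that inhibits Fbp1, moved little, with 3 higher, 4 lower and none past a 2-fold change by glmTreat. The largest changes there were in the pyruvate kinases CDC19 (log2 -0.67) and PYK2 (log2 -0.56). PYK2 is on chromosome XV, and relative to the median of that chromosome its change turned to a log2 of 0.31.

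Other genes that Cat8 or Adr1 are known to activate were counted in the same way. Of 8 such genes 6 rose, 1 fell and 1 did not pass (median log2 1.64), led by CRC1, the mitochondrial carnitine carrier (log2 2.20, on chromosome XV), and CAT2, a carnitine acetyltransferase (log2 2.17). JEN1, the lactate and pyruvate transporter, was at 4128, 4149 and 4176 CPM in CX01 and at 4261, 4285 and 4261 CPM in CX01F (log2 0.04, edgeR adjusted p = 0.188, and log2 -0.17 with scaling by library size only, adjusted p = 4.22e-05). It is on chromosome XI, with a log2 of 0.86 relative to the median of that chromosome, and it was called higher when CX01 replicate 3 was left out (adjusted p = 0.0292 by edgeR). ACS1, an acetyl-CoA synthetase, was at 2357 ± 66.01 CPM in CX01 and 2546 ± 26.9 CPM in CX01F (log2 0.11). With scaling by library size only ACS1 was called lower instead (log2 -0.10, edgeR adjusted p = 0.00625). It is counted among the 6 that rose, but its call was lost without chromosomes XI and XV (log2 -0.0046, edgeR adjusted p = 0.891). Per kilobase JEN1 and ACS1 were at places 31 and 89 of the 5856 ranked genes in CX01 and at places 42 and 141 in CX01F. ADY2, an acetate transporter, fell by 1.01 on the log2 scale. JEN1, ACS1 and ADY2 were named after their values were seen.

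The 33 tested genes outside the 10 that also had a full CSRE consensus match upstream were counted in the same way. Of these, 20 rose, 10 fell and 3 did not pass, with a median log2 change of 0.57. Past a 2-fold change by glmTreat, 14 of the 33 were higher and 0 were lower, where 14.8% of all tested genes were higher and 12.8% lower. Of the 33, YLR307C-A (log2 6.42) rose most, followed by GAL3, RKI1, RPL37A, PST1, YHR213W and RPL41B. The carnitine acetyltransferases YAT2 (log2 2.01) and YAT1 (log2 1.67) rose less than these. All were named after their values were seen. YAT1, YAT2 and ADY2 are also in the list of Cat8 or Adr1 targets counted above, so the 2 counts overlap. At the other end of the 33, and also named after their values were seen, ADY2 (log2 -1.01) and RAD4 (log2 -0.93) fell most. Neighbouring genes can share an upstream stretch, as DCP2 does with MLS1 and TRM13 with MDH2. DCP2 fell by 0.28 on the log2 scale and TRM13 rose by 1.33.

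The transcripts of the regulators moved in both directions. Of 15 regulators of CSRE genes 7 rose, 7 fell and 1 did not pass, with a median log2 change of -0.02. These shares are near the 45.5% called higher and 45.9% called lower over all tested genes. CAT8 was at 289, 300 and 296 CPM in CX01 and lower, at 204, 216 and 198 CPM, in CX01F (log2 -0.52). SIP4 was at 195, 185 and 205 CPM in CX01 and higher, at 351, 364 and 355 CPM, in CX01F (log2 0.87). CAT8 and SIP4 were named for their role after the values were seen. HXK2, the hexokinase that also acts in glucose repression, changed most (log2 2.87), followed by SIP2, a subunit of the Snf1 kinase (log2 1.69).

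For CIT2, the retrograde list held 2 genes higher and 2 lower of 4, also near the shares over all tested genes. RTG1, which forms the activator with Rtg3, fell by 2.14 on the log2 scale, from 220 ± 6.89 to 49.9 ± 1.596 CPM, and by 1.27 relative to the median of its chromosome, XV. MKS1, a negative regulator of the pathway, fell by 0.49. Of 12 genes of the GID ubiquitin ligase, which marks Fbp1 and Pck1 for breakdown when glucose returns, and of related genes, 10 fell and 2 rose, with a median of -0.50. The gene of largest change was YLR149C, named GID11 in the RefSeq table (log2 -1.51). Against that direction VID24, the subunit that recognises the substrate, rose by 1.44.

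The lists around DAL7 and ICL2 were also counted. Of 11 allantoin genes 3 rose, 5 fell and 3 did not pass, with a median of -0.07, where 45.5% of all tested genes were called higher and 45.9% lower. The call of DAL3 (log2 -0.19, edgeR adjusted p = 0.0395) was lost with the DESeq2 test, with limma voom, with the replicate block and when any library but CX01F replicate 3 was left out, with adjusted p-values up to 0.134, and DAL3 is named for that reason. DAL4, the allantoin permease, rose by a log2 of 1.85. DAL80, a GATA-type repressor of this pathway, fell by 4.25 on the log2 scale, from 46.3 ± 0.410 to 2.43 ± 0.0988 CPM, and lies on chromosome XI. All 3 genes of the methylcitrate cycle rose, ICL2 and CIT3 as given above and PDH1, its methylcitrate dehydratase, by a log2 of 2.55.

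**Figure D5:**
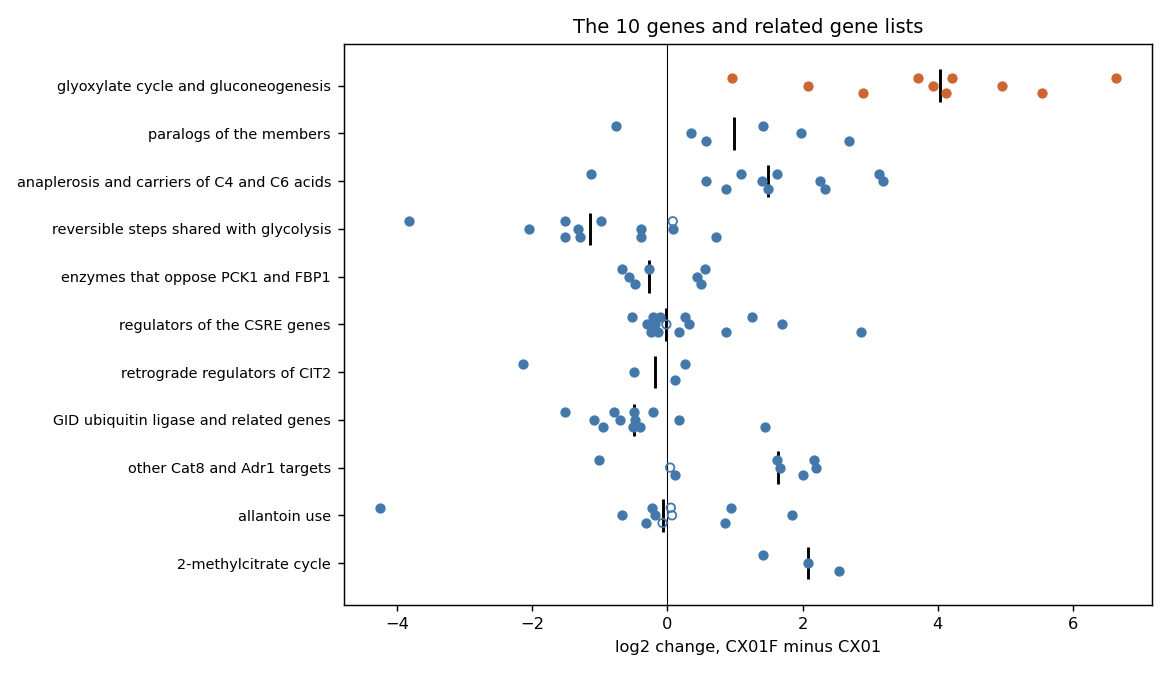
The log2 change (CX01F minus CX01) of every tested gene of the 10 and of each related list, with 1 point for each gene, filled where the edgeR test called it and open where it did not, and a black bar at the median. The 10 genes have a median of 4.03, the anaplerosis and carrier list 1.49 and the reversible glycolytic steps -1.15.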

How the data were processed

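The authors deposited 1 table of raw read counts per gene for the 6 libraries. Per the submitters' processing notes, TopHat2 2.0.12, Cufflinks, featureCounts and Subread 1.4.6 were used, and the genome build, annotation, strand setting and treatment of reads with several places are not given in the sources used here. Reads of close gene copies may therefore have been split. A row without a gene name (0.00877% to 0.044% of counts) was left out. Names were matched to RefSeq R64 for 6086 of 6400 genes, for chromosomes, coding lengths and sequences.

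Counts were filtered in R 4.3.3 with filterByExpr (minimum count 10, minimum total 15), scaled by TMM and tested in edgeR 4.0.16 by glmQLFit and glmQLFTest with strain as the only term, two-sided, and by glmTreat at 2-fold. Standard errors are the log2 change divided by the square root of F. CPM values use the TMM-scaled library size. DESeq2 1.42.0 and limma 3.58.1 were alternatives. On simulated counts for 6122 genes, 50 of 50 genes changed 2-fold and 50 of 50 changed 4-fold were called in the right direction. In that simulation 5922 genes were unchanged and the dispersion was fixed, whereas 91.4% of the genes were called in the real data. It therefore could not show how the scaling behaves where most genes change. Motifs were searched in 600 bases upstream. The edgeR p-values set the difference between the strains against the spread between libraries of the same strain, as handled.

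Named were the 10 genes, their relatives CIT1, CIT3, MDH1, MDH3, IDP1 and IDP3, the 2 called genes of largest absolute change at a mean of 10 CPM or more in every other list, the 3 genes most like ICL1, and PEX31 and PEX32. The genes and lists were chosen with earlier results of these data known.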

Additional observations from a re-analysis of the deposited data

How the results depend on the processing

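The 10 genes were called higher in each of the planned fits: DESeq2 size factors, library size only, no filter, the DESeq2 test, limma voom, the replicate block, 1 library left out, and leaving out chromosomes XI and XV, which removes PCK1 and MDH2 (8 of 8 called). DAL7 alone did not pass a 2-fold change. Library size only shifted the log2 changes by a median of -0.21 and gave a median of the 10 genes of 3.82. Over all tested genes it called 2221 higher and 3407 lower, against 2787 and 2816 with TMM scaling. In the lists, 1 reversible glycolytic step, 0 retrograde regulators and 1 GID gene were then higher. On the other side, 3 Cat8 or Adr1 targets and 8 allantoin genes were lower. Without XI and XV the median was 3.70, with 1 reversible step higher, 2 opposing enzymes lower, and 1 retrograde regulator higher and 1 lower. Over all genes tested there, 2344 were called higher and 2440 lower. Without XI and XV the counts fall partly because fewer genes are tested. That fit also shifted the log2 changes by a median of -0.12, and TPI1, still tested there, lost its call (log2 -0.03). The cause of the changed counts was otherwise not tested. Relative to the median of its own chromosome the log2 change was 6.48 for ICL1, 2.01 for ICL2, 5.48 for MLS1, 0.85 for DAL7, 3.78 for CIT2, 5.08 for MDH2, 5.76 for PCK1, 3.51 for FBP1, 4.03 for SFC1 and 2.70 for IDP2. Counting only called changes of at least 2-fold left, among relatives, 3 higher and 0 lower. Of reversible steps it left 0 higher and 6 lower, and of opposing enzymes 0 higher and 0 lower. Of CSRE regulators 3 were then higher and 0 lower, and of retrograde regulators 0 higher and 1 lower. Of GID genes 1 was higher and 2 lower, and of allantoin genes 1 higher and 1 lower. Over all tested genes, somewhat more passed this cut in each direction than passed glmTreat, whose shares are given above. With 1 library left out, the higher reversible steps ranged from 1 to 3 (without CX01 replicate 3, where GPM2 was also called) and the changed genes of the whole table from 5501 to 5617. The replicate block gave 5619 called genes, against 5603 without it. Same-numbered libraries deviated together only weakly (correlations of 0.0242, 0.0785 and 0.0207). Differently numbered libraries lay lower, from -0.0484 to 0.0196. These small values do not show whether the numbers are pairs. PEX32 (log2 -0.21, edgeR adjusted p = 0.082) became called in 4 fits.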
